A study of Mus musculus with 32 samples.

Results

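The 10 genes described here mark blood vessel endothelium or encode the receptors and ligands that control its growth. They are Pecam1 and Cdh5, the VEGF receptors Kdr and Flt1, the angiopoietin receptor Tek and its partner Tie1, the ligands Vegfa and Vegfb, and the ligands Angpt1 and Angpt2. They were taken by symbol from a table of 47643 Ensembl genes, and all 10 passed the filter on low counts in both tissues. Epididymal white adipose tissue (eWAT) and liver came from male C57BL/6 mice, which were 10 weeks old and drank water with corticosterone (Cort), the main glucocorticoid of rodents, or with the vehicle (Veh) for 7 days. During those days the mice ate a diet with 20% (NPD) or 60% (HPD) of its energy as protein, the HPD holding less carbohydrate. Strain, sex, age and duration were shared by all groups. Each of the 4 groups had 4 mice per tissue, which gave 16 eWAT and 16 liver libraries. Liver Veh HPD replicate 4 was left out, and 15 liver libraries were used.

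Endothelial cells line every blood vessel. Pecam1 (CD31) and Cdh5 (VE-cadherin) hold their junctions together. VEGF-A drives the division and sprouting of endothelial cells mainly through VEGFR2, the product of Kdr, while VEGFR1, the product of Flt1, binds VEGF-A more tightly, signals weakly and is known as a decoy. VEGF-B binds VEGFR1 and is abundant in tissues that burn fatty acids. Angiopoietin-1 activates the receptor Tie2, the product of Tek, and keeps vessels quiet. Angiopoietin-2, made by endothelial cells, mostly opposes it, and Tie1 modulates the signal. In adipose tissue the capillary bed grows with the fat mass. In liver the sinusoids are lined by a fenestrated endothelium of its own. Glucocorticoids are known as inhibitors of vessel growth.

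The libraries held 8933307 to 18057936 counts, read from the 3′ end of transcripts (QuantSeq). Endothelial markers were present in every library of both tissues, adipocyte markers in every eWAT library and hepatocyte markers in every liver library. In eWAT the summed level of 12 glucocorticoid receptor targets lay between 1528 and 3978 counts scaled to library size (CPM) in the 8 Veh libraries and between 5900 and 9879 CPM in the 8 Cort libraries, and 4 of the 12 rose and 1 fell. Over the mean of both diets 15.5% of all 15187 eWAT genes tested were called, as defined below (1235 higher, 1125 lower). In eWAT Cort HPD replicate 4 the 13 markers of epididymis and testis summed to 11949 CPM, against 0 to 11.6 CPM in the other eWAT libraries. In liver Cort NPD replicate 3, 8 skeletal muscle markers summed to 577 CPM, against 1.30 to 51.3 CPM in the other liver libraries used. The part of either in the results was not tested, and values without each library are given where they bear on a call. A gene is called changed at an adjusted p under 0.05 in edgeR's quasi-likelihood test, with Benjamini-Hochberg adjustment over every gene tested, and log2 fold changes are given ± SE.

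The 10 genes were read far more often in fat than in liver. Under Veh on the NPD the mean CPM of a gene was 4.08 times (Vegfa) to 33.3 times (Angpt1) as high in eWAT as in liver, as a description of 2 tissues that were scaled separately. Vegfb, for example, lay at 203 ± 29.4 CPM (SD, n = 4) in eWAT and at 8.69 ± 1.15 CPM (SD, n = 4) in liver. For all 10 genes the lowest eWAT library of any group stood above the highest liver library used, for Kdr at 111 CPM against 55.1 CPM. Liver counts of Angpt1 (2 to 22 reads per library) and Angpt2 (3 to 36 reads) were so few that differences in them were not detectable at this depth, and the 4 to 68 reads of Tek in liver allow only large differences to be seen. Cdh5 and Angpt1 each overlap an antisense gene (Gm29682 and Gm17473) and Angpt2 lies inside Mcph1 on the opposite strand. The strand setting of the counting was not given, so reads from such pairs cannot be told apart.

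**Figure D1:**
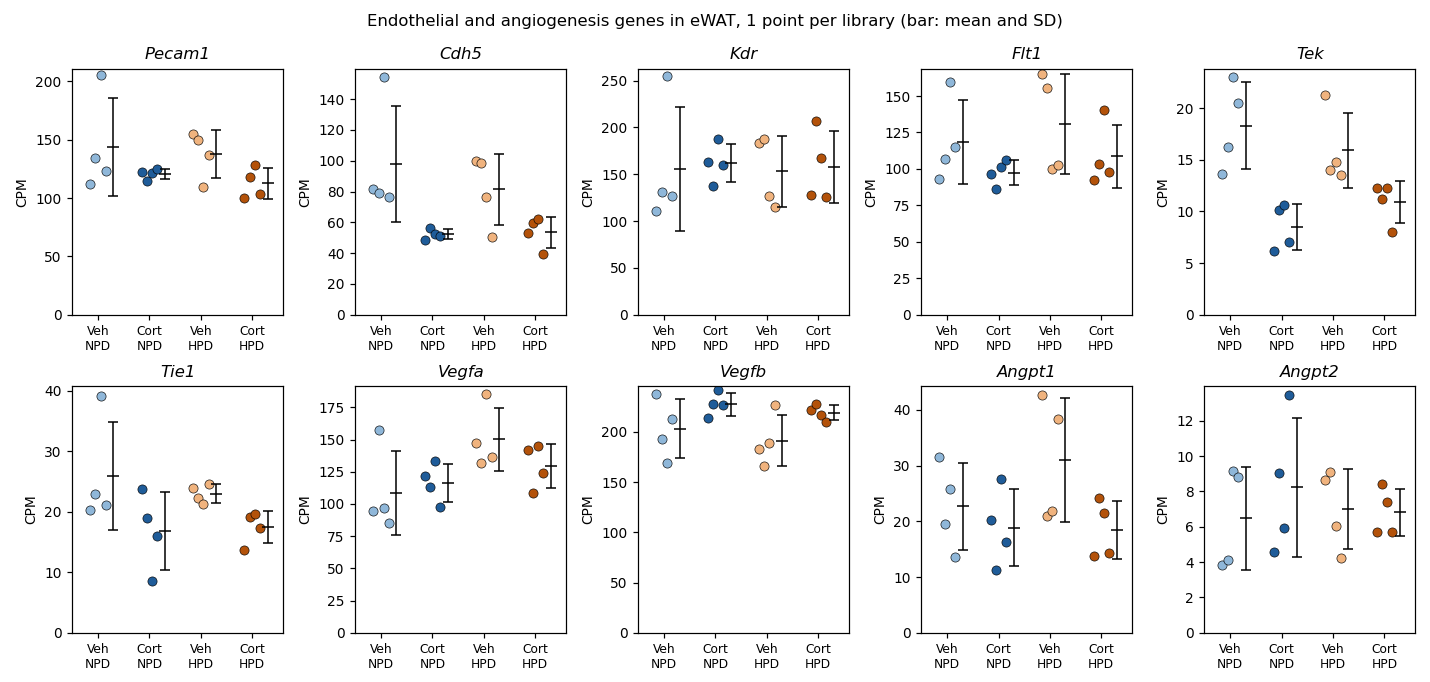
CPM of the 10 genes in the 16 eWAT libraries by group, with 1 point per library and the mean and SD beside them (n = 4). The 4 Cort NPD points of Cdh5 (48.8 to 56.6) and of Tek (6.18 to 10.6) lie under all 4 Veh NPD points of the same gene, while the Kdr points of Veh and Cort overlap on both diets.

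In eWAT, Cdh5, Tek and Tie1 were lower under Cort, while no change of the VEGF receptor Kdr was called. Over the mean of both diets these 3 of the 10 genes fell and none rose, beside 15.5% of all 15187 genes called (1235 higher, 1125 lower). The other 7 genes had log2 fold changes between -0.51 (Angpt1) and 0.18 (Vegfb) that were not called. The median of the 10 was -0.27, beside -0.02 over all genes. On the NPD alone 2 of the 10 were called, both lower, beside 7.98% of all genes (615 higher, 597 lower). With library totals in place of TMM factors the calls over all genes became 435 higher and 769 lower on the NPD and 916 higher and 1459 lower over both diets, the median of all genes on the NPD moving to -0.11. On the HPD alone 0 of the 10 were called by edgeR, DESeq2 or limma voom, beside 6.09% of all genes by edgeR, and 3 of the 10 had an unadjusted p under 0.05 by each tool. By edgeR 2872 of all 15187 genes had such an unadjusted p on the HPD. In bulk tissue, fewer endothelial cells and less of a transcript in each cell cannot be told apart.

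Cdh5, on the forward strand of chromosome 8 (GRCm38, 104101625 to 104144511), read 81.8, 79.4, 154 and 76.7 CPM in the 4 Veh NPD libraries and 48.8, 56.6, 52.5 and 51.2 CPM in the 4 Cort NPD libraries. The groups did not overlap, and Veh NPD replicate 3 stood well above its group. The log2 fold change was -0.91 ± 0.23 (adjusted p = 0.0186), a level 0.534 times that of Veh. On the HPD the Veh libraries read 99.95, 98.7, 76.1 and 50.7 CPM and the Cort libraries 53.2, 59.8, 61.9 and 39.3 CPM. These groups overlapped in 1 Veh library, replicate 4, and the log2 fold change of -0.60 ± 0.23 was not called (adjusted p = 0.145). Leaving out that Veh library gave -0.78, which was called (adjusted p = 0.0274). Leaving out Veh NPD replicate 3 gave -0.60, which was called as well (adjusted p = 0.0299). Without Veh NPD replicate 3 the value on the NPD was also -0.60 (adjusted p = 0.0479). Over both diets Cdh5 fell by 0.76 on the log2 scale (SE 0.16, adjusted p = 0.00313). The NPD call was lost without Cort NPD replicate 1, 3 or 4 (adjusted p of 0.0563 to 0.0617), and the call over both diets was kept without any single library. Without Cort HPD replicate 4, the library with epididymis transcripts, it was -0.69 (adjusted p = 0.00603).

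Pecam1, the other junction gene, was lower by less. Its Veh libraries read 112, 134, 206 and 123 CPM on the NPD and 155, 150.1, 109.8 and 137 CPM on the HPD. Its Cort libraries read 122, 114, 121 and 125 CPM on the NPD and 99.96, 118, 129 and 103 CPM on the HPD. The groups overlapped on both diets. Over both diets the log2 fold change was -0.27 ± 0.11 (adjusted p = 0.0868), short of the threshold. It was called with library totals in place of TMM factors, the gene counts divided by the plain total (-0.34, adjusted p = 0.0403). Leaving out Veh NPD replicate 1 or Veh HPD replicate 3 also gave a call (adjusted p of 0.0418 and 0.0451). Over all fits that left out 1 library the value ranged from -0.32 to -0.16 over both diets. On the NPD, where Veh replicate 3 stood highest at 206 CPM, it ranged from -0.35 to -0.03.

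The angiopoietin receptors are shown with the sequence around their transcription start, because both fell. Each window runs from 250 bases before to 50 bases after the start (RefSeq, GRCm38.p6) and is printed 5′ to 3′ on the strand of the gene, for Tek at chr4:94739039-94739338 on the forward strand and for Tie1 at chr4:118489800-118490099 on the reverse strand. Capitals mark the core of ETS factor sites, GGAAG on either strand, ETS factors being known regulators of endothelial genes.
Tek: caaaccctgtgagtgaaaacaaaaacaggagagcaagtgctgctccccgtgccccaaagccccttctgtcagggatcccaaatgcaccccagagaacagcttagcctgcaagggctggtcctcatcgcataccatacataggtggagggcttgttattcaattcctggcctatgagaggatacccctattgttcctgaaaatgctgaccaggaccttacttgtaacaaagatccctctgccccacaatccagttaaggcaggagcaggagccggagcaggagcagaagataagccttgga
Tie1: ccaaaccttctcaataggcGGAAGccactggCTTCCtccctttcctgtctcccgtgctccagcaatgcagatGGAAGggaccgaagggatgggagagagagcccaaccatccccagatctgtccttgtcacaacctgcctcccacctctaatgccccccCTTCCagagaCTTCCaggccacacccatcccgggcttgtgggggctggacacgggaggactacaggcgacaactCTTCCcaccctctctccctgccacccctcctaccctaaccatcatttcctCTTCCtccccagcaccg
The Tie1 window held 7 matches and the Tek window 0. GGAAG occurs in 71.4% of the 32851 mouse promoter windows of this length, with a median of 1 match, and 7 or more matches occur in 0.234% of them. The core of the glucocorticoid response element, ACANNNTGT, had no match in either window nor in those of Kdr, Flt1, Vegfa or Vegfb, and is found in 6.85% of all windows. Windows of the other 4 genes were not used here.

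Tek, the angiopoietin receptor, lies at 94739289 to 94874976 on the forward strand of chromosome 4. It read 13.6, 16.2, 23.0 and 20.5 CPM in Veh NPD and 6.18, 10.1, 10.6 and 7.03 CPM in Cort NPD. It read 21.3, 14.0, 14.8 and 13.6 CPM in Veh HPD and 12.3, 11.2, 12.3 and 7.98 CPM in Cort HPD. On both diets every Cort library lay below every Veh library. Tek fell on the NPD, with a log2 fold change of -1.11 ± 0.24 (adjusted p = 0.00349), a level 0.464 times that of Veh, and -0.54 ± 0.24 on the HPD, which was not called (adjusted p = 0.205). The difference between the diets, 0.56 ± 0.34, was not called (adjusted p = 0.969). Over both diets Tek fell by 0.83 on the log2 scale (SE 0.17, adjusted p = 0.000972), and this call and that on the NPD were kept without any single library and in every other fit that was run.

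Tie1, which pairs with Tie2 at the endothelial surface, read 20.3, 22.9, 39.2 and 21.1 CPM in Veh NPD and 23.8, 19.0, 8.52 and 15.9 CPM in Cort NPD. These groups overlapped. On the HPD they did not, with 23.9, 22.3, 21.2 and 24.7 CPM under Veh and 13.7, 19.2, 19.7 and 17.3 CPM under Cort. The log2 fold change over both diets was -0.51 ± 0.17 (adjusted p = 0.0422). It was lost without Veh NPD replicate 3, any 1 Veh HPD library, Cort NPD replicate 3 or 4, or Cort HPD replicate 1, 2 or 4 (adjusted p of 0.0514 to 0.138), the smallest value being -0.37. The log2 ratio of Tek to Tie1 within a library differed by -0.29 between Cort and Veh (exact permutation test, two-sided p = 0.306), which does not show a difference between the receptors.

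Kdr, the main VEGF receptor of endothelium, lies at 75932827 to 75978458 on the reverse strand of chromosome 5. It read 111, 131, 255 and 127 CPM in Veh NPD and 163, 137, 188 and 159 CPM in Cort NPD. On the HPD it read 183, 188, 127 and 115 CPM under Veh and 128, 207, 168 and 126 CPM under Cort. The groups overlapped on both diets, and the log2 fold change over both was 0.05 ± 0.18 (adjusted p = 0.902), with a 95% interval of -0.30 to 0.39. A fall of 0.76, the value for Cdh5, lies outside this interval. Leaving out 1 library gave Kdr values from -0.03 to 0.22 over both diets. On the NPD, where Veh replicate 3 stood well above its group, they ranged from -0.08 to 0.40.

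Because total counts cancel in a ratio of 2 genes of the same library, Kdr was set against Cdh5 directly. There were 1.36, 1.65, 1.65 and 1.65 Kdr reads per Cdh5 read in the Veh NPD libraries and 3.35, 2.43, 3.58 and 3.11 in the Cort NPD libraries. On the HPD there were 1.83, 1.91, 1.67 and 2.27 under Veh and 2.40, 3.47, 2.71 and 3.21 under Cort. The highest of the 8 Veh libraries stood below the lowest of the 8 Cort libraries. The log2 ratio was higher under Cort by 0.79 (exact permutation test with labels permuted within diets, two-sided p = 0.000408, the smallest this design can give, adjusted over 8 ratios to 0.00163). It was higher by 0.97 on the NPD and by 0.62 on the HPD, and each diet alone can give no p below 0.0286 in the exact test.

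Flt1, the other VEGF receptor, lies at 147561604 to 147726011 on the reverse strand of chromosome 5. It read 93.2, 107, 159.6 and 115 CPM in Veh NPD and 96.3, 86.4, 101 and 106 CPM in Cort NPD. On the HPD it read 165, 155, 100.1 and 103 CPM under Veh and 92.6, 104, 140.3 and 98.0 CPM under Cort. The groups overlapped and the log2 fold change over both diets, -0.28 ± 0.12, was not called (adjusted p = 0.148). Within libraries, however, Flt1 was lower relative to Kdr under Cort. Flt1 reads per Kdr read lay at 0.838, 0.814, 0.627 and 0.905 in Veh NPD and at 0.589, 0.629, 0.537 and 0.666 in Cort NPD. On the HPD they lay at 0.900, 0.827, 0.790 and 0.894 under Veh and at 0.723, 0.500, 0.837 and 0.777 under Cort. Apart from Veh NPD replicate 3 and Cort HPD replicate 3, each Cort library was below each Veh library of its diet. The log2 ratio differed by -0.34 (exact permutation test, two-sided p = 0.00449, adjusted p = 0.0120).

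Of the ligands in eWAT, none was called over the mean of both diets. Vegfa read 85.1 to 157 CPM in Veh NPD, 97.9 to 133 CPM in Cort NPD, 132 to 186 CPM in Veh HPD and 108 to 145 CPM in Cort HPD, so that the groups overlapped on both diets. Its log2 fold change was -0.06 ± 0.11 (adjusted p = 0.809). Vegfb, a ligand of Flt1, read 169 to 238 CPM in Veh NPD, 214 to 242 CPM in Cort NPD, 166 to 227 CPM in Veh HPD and 209.9 to 228 CPM in Cort HPD. Its log2 fold change of 0.18 ± 0.08 (adjusted p = 0.159) was called with limma voom and quality weights (0.22, adjusted p = 0.0320) and by edgeR when Veh HPD replicate 4 was left out (0.23, adjusted p = 0.0414). Angpt1 read 13.6 to 31.6 CPM in Veh NPD, 11.3 to 27.7 CPM in Cort NPD, 21.0 to 42.6 CPM in Veh HPD and 13.8 to 24.1 CPM in Cort HPD, with a log2 fold change of -0.51 ± 0.22 (adjusted p = 0.130). Angpt2, which peaks in sprouting endothelium, read 3.83 to 13.4 CPM over the 16 libraries, with a log2 fold change of 0.15 ± 0.25 (adjusted p = 0.755). The log2 ratio of Angpt2 to Angpt1 was higher by 0.67 under Cort and that of Vegfa to Vegfb lower by 0.23, and neither passed the exact permutation test (two-sided p = 0.130 and 0.189, n = 16 libraries).

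**Figure D2:**
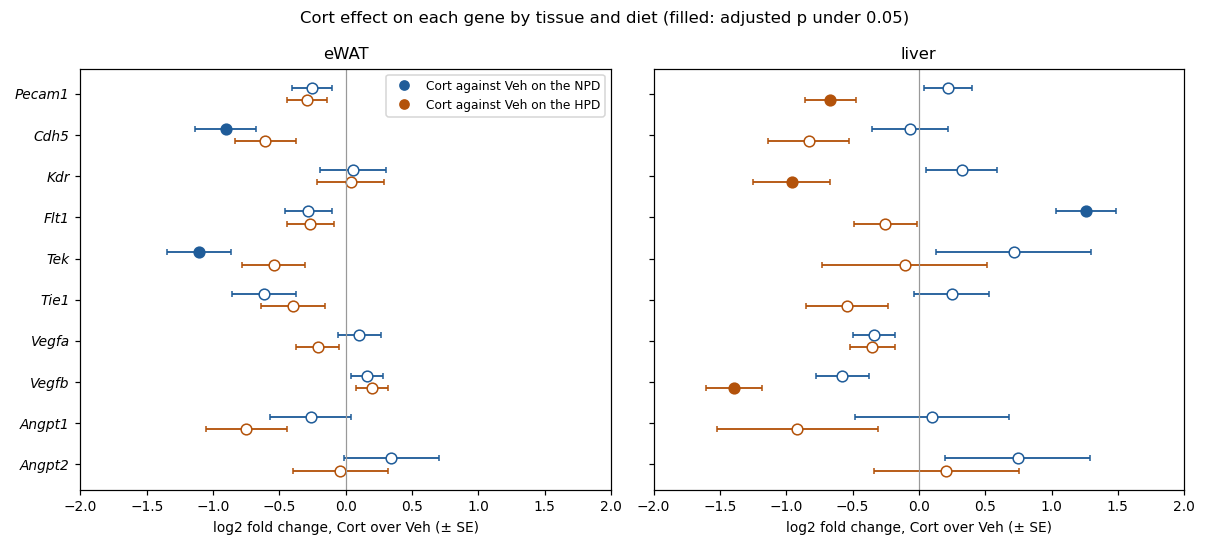
Log2 fold change of Cort over Veh (± SE) for each gene on the NPD and the HPD, in eWAT on the left and in liver on the right, with filled points for an adjusted p under 0.05. In eWAT the paired points of a gene lie on the same side for 8 of the 10 genes, the exceptions being Vegfa and Angpt2. In liver the HPD point lies left of the NPD point for all 10, by 0.01 for Vegfa.

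No difference between the diets was called in fat. Between the HPD and the NPD under Veh 0 of the 10 were called, beside 0.0593% of all genes (9 of 15187). An unadjusted p under 0.05 was found for 1219 of all genes and for 1 of the 10. That member was Vegfa, with a log2 fold change of 0.47 ± 0.16 (adjusted p = 0.380). Under Cort 0 of the 10 were called, beside 0.487% of all genes, with 0 at an unadjusted p under 0.05 (1490 of all genes). For an interaction between diet and Cort 0 of the 10 were called, beside 0.0132% of all genes. Again 0 had an unadjusted p under 0.05 (784 of all genes). DESeq2 and limma voom also called 0 in these 3 comparisons, with the same counts of the 10 at an unadjusted p under 0.05. Cdh5 and Tek were called on the NPD alone, and a difference of their effects between the diets was not shown.

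Other endothelial genes of fat shifted in the same direction as Cdh5 and Tek, in lists chosen with earlier results of these data known. Of 24 further genes of endothelial identity, all tested, 15 fell over the mean of both diets and 0 rose, with a median of -0.59, beside 1125 lower and 1235 higher of all 15187 genes and a median of -0.02. Among those that fell were the tight junction gene Cldn5 (log2 fold change -1.17), Rasip1, needed for the vessel lumen (-0.95), and the arterial transcription factor Sox17 (-1.58). Their summed level lay between 867 and 1594 CPM in the Veh libraries and between 667 and 849 CPM in the Cort libraries, without overlap on either diet. Without Cort HPD replicate 4 the count was 15 as well. Of 9 genes of fat capillaries 5 fell, among them the water channel Aqp1 (-0.82), Gpihbp1, which anchors lipoprotein lipase (-0.67), and the carbonic anhydrase Car4 (-1.05). Rgcc rose by 0.77. Without Cort HPD replicate 4, 5 of the 9 capillary genes were called in either direction. Of 4 leukocyte adhesion genes of endothelium that were tested out of 6, 3 fell, Vcam1 (-0.90), the chemokine-binding Ackr1 and Icam1 (-0.57), and the list had a median of -0.74.

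The counts in the next lists are to be read beside the 15.5% of all genes called, and several lie near it. Of 10 tip cell genes 2 fell, the apelin receptor Aplnr (-3.52) and its ligand Apln (-1.22). Aplnr read 0.09 to 0.27 CPM in Cort NPD and 0.32 to 1.16 CPM in Cort HPD, near the floor, so the size of its fall is uncertain. Of 12 Notch pathway genes 5 fell and 0 rose (4 without Cort HPD replicate 4), among them Rbpj (-0.52), Dll1 (-2.20) and the endothelial receptor Notch4 (-0.62). Dll1 read 0.24 to 1.09 CPM in Cort NPD and 0.11 to 1.99 CPM in Cort HPD, also near the floor. Of 8 other genes of the VEGF and angiopoietin families, Vegfd rose (0.86) and Svep1, a ligand in the Tie pathway, fell (-0.87). Of 10 secreted inhibitors of angiogenesis tested out of 12, 3 rose (Col18a1, which holds endostatin, by 0.58, Thbs2 by 1.92 and Adamts1 by 0.69) and 2 fell (Serpinf1, -0.82, and Timp3, -0.59), with a median of -0.03. Of 16 hypoxia genes tested out of 18, Vhl (1.06) and Egln3 (1.42) rose and Adm, the vasodilator adrenomedullin, fell (-0.82), with a median of 0.10. Of 6 lymphatic genes tested out of 7, Reln rose by 0.84 and 0 fell. Of 10 genes of liver sinusoids tested in eWAT, Dnase1l3 (-4.46) and Fcgr2b (-0.45) fell. Dnase1l3 read 0 to 0.51 CPM in Cort NPD and 0 to 0.27 CPM in Cort HPD, at the floor. Without Cort HPD replicate 4, 3 tip cell, 4 inhibitor, 4 hypoxia and 3 sinusoidal genes were called in either direction.

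Markers of cells beside the endothelium changed as well, and their counts are to be read beside the 15.5% of all genes called (1235 higher, 1125 lower). Of 13 mural cell genes 3 fell, Rgs5 (-1.33), Notch3 (-0.95) and Acta2 (-0.86), and the list had a median of -0.49. Without Cort HPD replicate 4, 4 of these 13 were called. Of 9 stromal progenitor markers 6 fell and 0 rose, their sum lying between 955 and 3048 CPM under Veh and between 1000 and 1338 CPM under Cort. Of 9 adipocyte markers 3 rose and 2 fell. The 8 red blood cell markers summed to 12697 to 25885 CPM in Cort HPD and to 3622 to 9281 CPM in the other 3 groups. The authors report that Cort lowered inflammatory pathways in eWAT, with a blunted response of some of them on the HPD. Macrophage markers are not given here for eWAT. The part of changes in cell makeup, macrophages included, in the values of Cdh5, Tek and Tie1 was not tested.

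**Figure D3:**
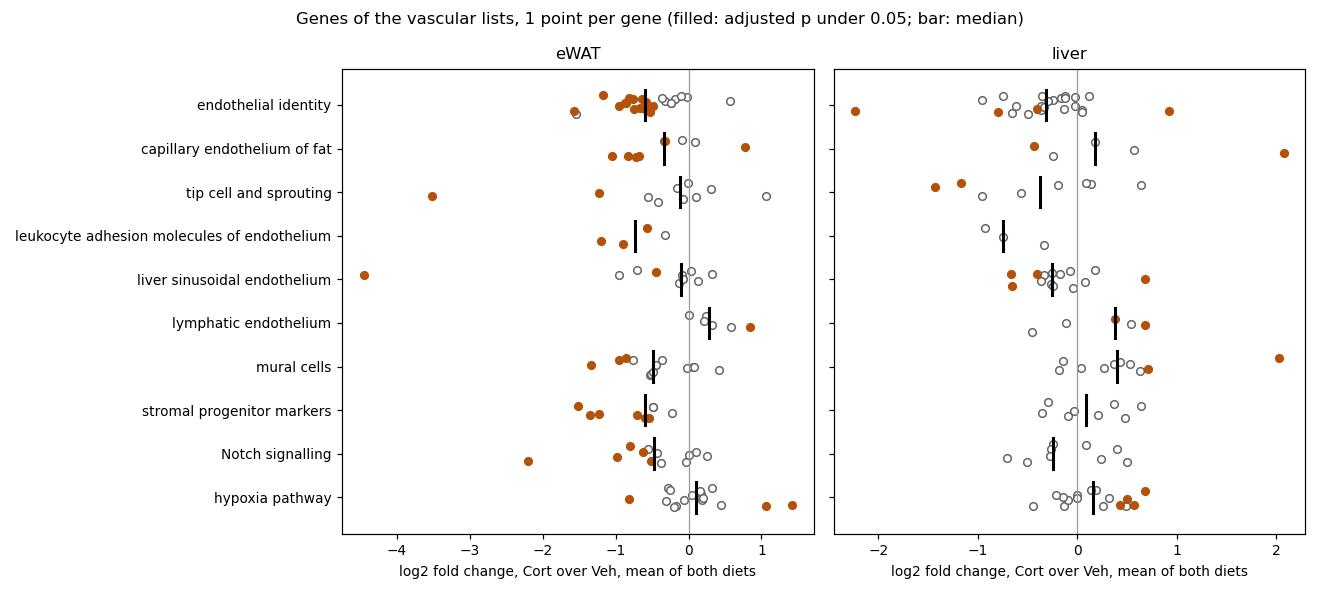
Log2 fold change of Cort over Veh, as the mean of both diets, for the genes of 10 lists in eWAT (left) and liver (right), with 1 point per gene tested, filled for an adjusted p under 0.05, and a bar at the list's median. The endothelial identity list has its median at -0.59 in eWAT and at -0.31 in liver, and the mural cell list at -0.49 and 0.40.

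In liver Flt1 was higher under Cort on the NPD, and Pecam1, Kdr and Vegfb were lower on the HPD. On the NPD 1 of the 10 genes was called, beside 12.6% of all 12391 genes. On the HPD 3 were called, all lower, beside 9.89% of all genes. Over the mean of both diets Flt1 rose while Vegfa and Vegfb fell, beside 20.4% of all genes (1330 higher, 1199 lower). The median of the 10 was 0.23 on the NPD and -0.61 on the HPD, beside -0.01 and -0.00 over all genes. With library totals in place of TMM factors the median of all genes on the HPD moved to -0.24 and the calls over all genes from 589 higher and 637 lower to 275 higher and 1272 lower, and 5 of the 10 were then called, all lower, Cdh5 and Vegfa being added. In that fit Pecam1 stood at -0.88, Kdr at -1.19 and Vegfb at -1.64, all below the median of all genes. Over both diets the calls over all genes became 748 higher and 1864 lower.

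**Figure D4:**
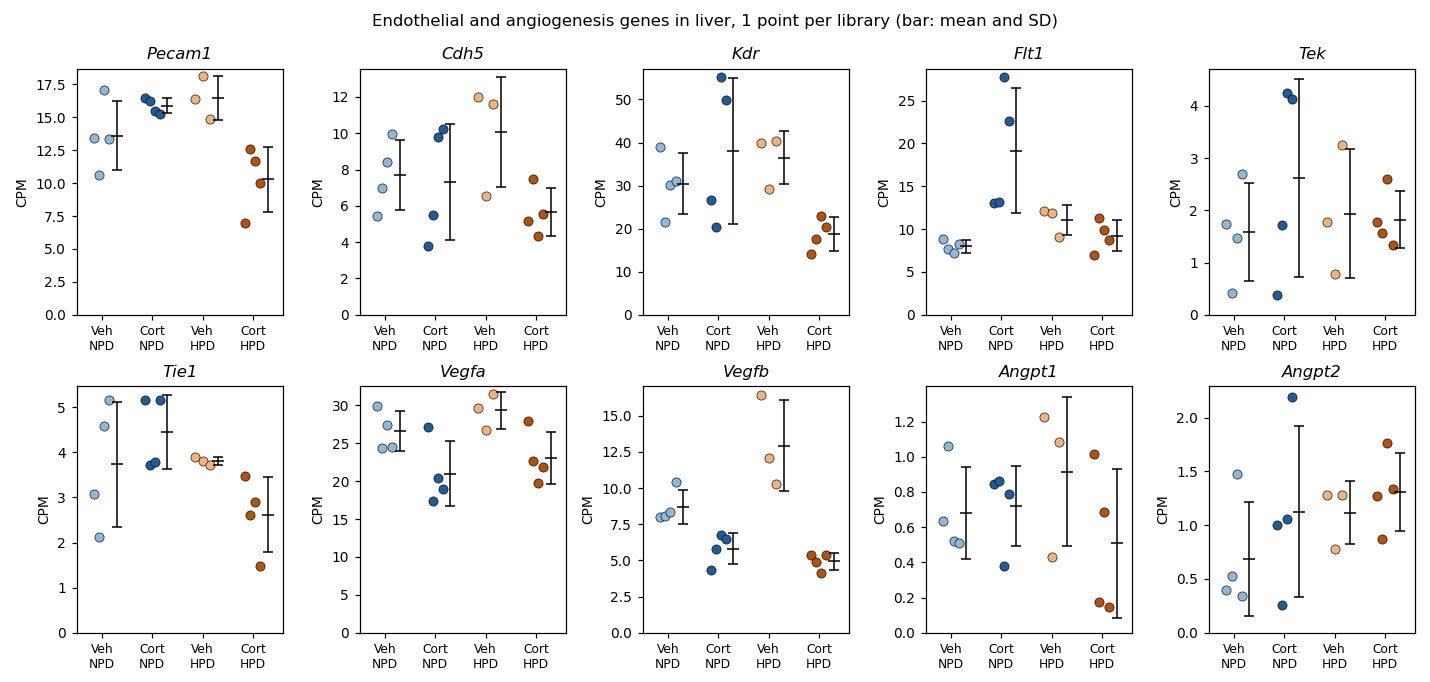
CPM of the 10 genes in the 15 liver libraries used, with 1 point per library and the mean and SD beside them (n = 4, and n = 3 for Veh HPD). All 4 Cort NPD points of Flt1 (13.1 to 27.7) lie above the 4 Veh NPD points (7.19 to 8.85), and all 4 Cort HPD points of Vegfb (4.13 to 5.35) lie below the 3 Veh HPD points (10.3 to 16.4).

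The VEGF receptor windows are shown because the ratio of these receptors differed between Cort and Veh in both tissues, Kdr at chr5:75978406-75978705 and Flt1 at chr5:147725962-147726261, both on the reverse strand, printed as above with GGAAG matches on either strand in capitals.
Kdr: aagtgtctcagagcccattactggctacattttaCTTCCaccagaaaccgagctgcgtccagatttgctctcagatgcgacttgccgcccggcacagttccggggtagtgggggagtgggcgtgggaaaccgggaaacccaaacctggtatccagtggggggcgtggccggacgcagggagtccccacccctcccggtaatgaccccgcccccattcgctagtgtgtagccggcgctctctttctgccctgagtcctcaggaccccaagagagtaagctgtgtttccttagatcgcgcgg
Flt1: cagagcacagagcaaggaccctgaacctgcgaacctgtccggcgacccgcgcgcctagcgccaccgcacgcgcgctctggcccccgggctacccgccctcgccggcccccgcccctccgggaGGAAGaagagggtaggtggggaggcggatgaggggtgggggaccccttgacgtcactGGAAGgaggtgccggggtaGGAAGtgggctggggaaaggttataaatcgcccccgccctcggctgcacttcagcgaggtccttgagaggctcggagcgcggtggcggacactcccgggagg
The Kdr window held 1 match and the Flt1 window 3. The hypoxia response core ACGTG, present in 19.6% of all windows on either strand, had no match in these, in Tek, Tie1 or Vegfb, and 1 match in the second of the 2 Vegfa windows.

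Flt1 read 8.85, 7.64, 7.19 and 8.29 CPM in Veh NPD liver and 13.1, 13.1, 27.7 and 22.7 CPM in Cort NPD liver. The groups did not overlap, and Cort NPD replicates 3 and 4 stood highest. The log2 fold change was 1.26 ± 0.23 (adjusted p = 0.000607), a level 2.40 times that of Veh. It was 1.02 (adjusted p = 0.00481) without Cort NPD replicate 3, the library with skeletal muscle transcripts, and the call was kept without any single library and in every other fit run. On the HPD Flt1 read 12.2, 11.9 and 9.05 CPM under Veh and 7.04, 11.3, 9.95 and 8.69 CPM under Cort. These groups overlapped, and the log2 fold change of -0.25 ± 0.24 was not called (adjusted p = 0.557).

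Kdr was called on the HPD and not on the NPD, and the interaction of the diet with Cort was not called for it (adjusted p = 0.209). It read 38.9, 21.6, 30.2 and 31.0 CPM in Veh NPD and 26.6, 20.4, 55.1 and 49.9 CPM in Cort NPD, where replicates 3 and 4 again stood above the others, and the log2 fold change of 0.32 ± 0.27 was not called (adjusted p = 0.486). On the HPD it read 39.8, 29.3 and 40.3 CPM under Veh and 14.1, 17.5, 23.0 and 20.4 CPM under Cort, without overlap. The log2 fold change was -0.96 ± 0.29 (adjusted p = 0.0432). This call was lost without Veh NPD replicate 3 or 4, Veh HPD replicate 1 or 3, or Cort HPD replicate 1, 2 or 4 (adjusted p of 0.0533 to 0.140), and the smallest value was -0.85. It was also lost when low counts were not filtered (adjusted p = 0.112), with limma voom and quality weights (0.110) and with all 16 liver libraries (0.0715).

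Within libraries Flt1 was higher relative to Kdr under Cort on both diets. Flt1 reads per Kdr read lay at 0.228, 0.355, 0.238 and 0.267 in Veh NPD and at 0.491, 0.641, 0.503 and 0.454 in Cort NPD. On the HPD they lay at 0.305, 0.407 and 0.225 under Veh and at 0.500, 0.645, 0.432 and 0.425 under Cort. All 8 Cort libraries stood above all 7 Veh libraries. The log2 ratio was higher by 0.83 (exact permutation test, two-sided p = 0.000408, the smallest the design can give, adjusted p = 0.00163), by 0.95 on the NPD and by 0.70 on the HPD. The log2 ratio of Kdr to Cdh5, which changed in fat, differed by 0.12 in liver (exact permutation test, two-sided p = 0.635).

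**Figure D5:**
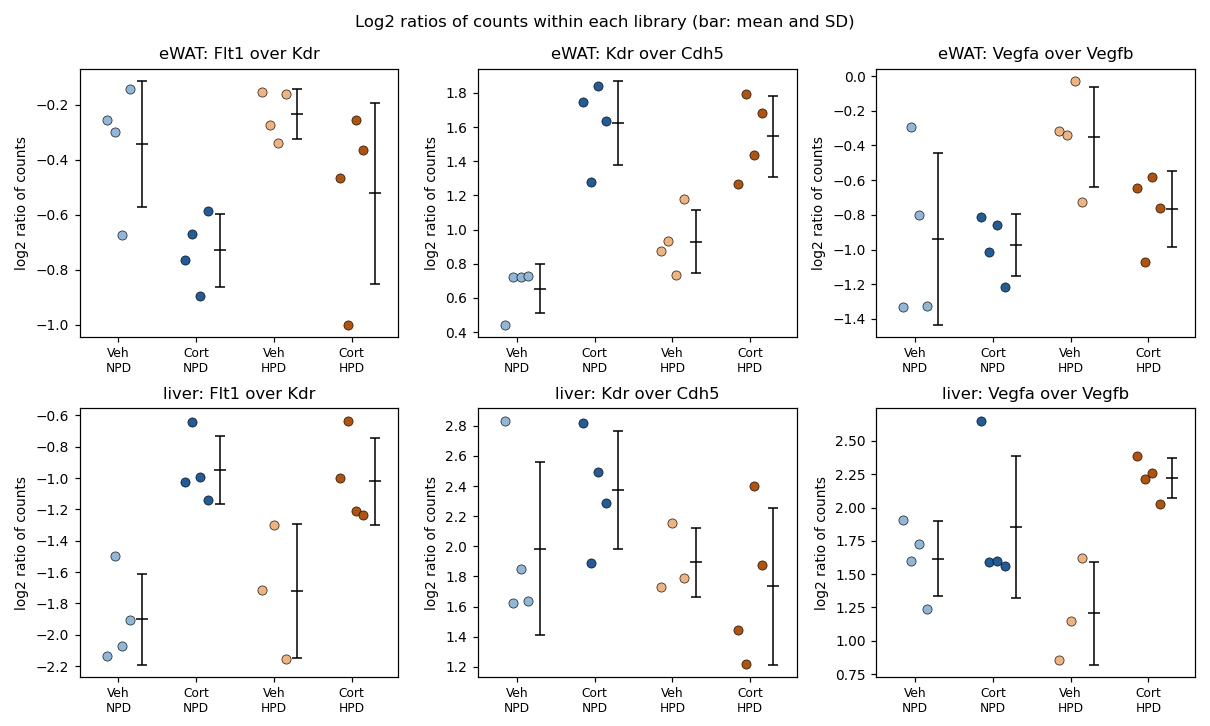
Log2 ratios of counts within each library for Flt1 over Kdr, Kdr over Cdh5 and Vegfa over Vegfb, in eWAT (top) and liver (bottom), with 1 point per library and the mean and SD of each group. Flt1 over Kdr is lower under Cort in eWAT (difference -0.34) and higher under Cort in liver (difference 0.83), and Kdr over Cdh5 is higher under Cort in eWAT (difference 0.79).

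The ligand Vegfb fell in liver. It lies at 6982473 to 6987651 on the reverse strand of chromosome 19. It read 7.98, 8.07, 8.31 and 10.4 CPM in Veh NPD and 4.31, 5.78, 6.74 and 6.44 CPM in Cort NPD. It read 16.4, 12.1 and 10.3 CPM in Veh HPD and 5.34, 4.88, 4.13 and 5.35 CPM in Cort HPD. On both diets every Cort library lay below every Veh library. For the NPD the difference was -0.58 ± 0.20 on the log2 scale, short of the threshold (adjusted p = 0.0603), and -1.39 ± 0.21 on the HPD (adjusted p = 0.000163), a level 0.381 times that of Veh. The difference between the diets, -0.82 ± 0.29, was not called (adjusted p = 0.255). Over both diets Vegfb fell by 0.99 (SE 0.14, adjusted p = 3.54e-05), and both the HPD call and this call were kept without any single library. DESeq2 called the NPD value (-0.58, adjusted p = 0.0471), as did the edgeR fit that left out Cort HPD replicate 1 (adjusted p = 0.0485).

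Vegfa, the main growth factor of the family, fell by less. Its Veh libraries read 24.4 to 30.0 CPM on the NPD and 26.8 to 31.6 CPM on the HPD, and its Cort libraries 17.4 to 27.1 CPM and 19.8 to 27.9 CPM. The groups overlapped on both diets. Vegfa fell by 0.35 over both diets (SE 0.12, adjusted p = 0.0376). The call was lost without any 1 of 10 libraries, Veh NPD replicates 1 and 3, Veh HPD replicates 1 and 3, Cort NPD replicates 2, 3 and 4, and Cort HPD replicates 2, 3 and 4 (adjusted p of 0.0529 to 0.0848), with no filter on low counts (0.0692) and with all 16 liver libraries (0.218). The log2 ratio of Vegfa to Vegfb was higher under Cort by 0.62 (exact permutation test, two-sided p = 0.0122, adjusted p = 0.0245). This call was lost in 6 of 15 tests that left out 1 library, Veh NPD replicate 4, Cort NPD replicate 1 or any Cort HPD library, and with the replicate block (adjusted p = 0.125).

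Flt1 over both diets rose by 0.50 (SE 0.16, adjusted p = 0.0333), the mean of a rise on the NPD and an uncalled lower value on the HPD. It was lost without Veh NPD replicate 2 or 3, Veh HPD replicate 3, Cort NPD replicate 3 or 4, or Cort HPD replicate 2 or 3 (adjusted p of 0.0545 to 0.0953) and with library totals in place of TMM factors (0.39, adjusted p = 0.142), limma voom (adjusted p = 0.0571) or the replicate block (adjusted p = 0.0739).

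Of the junction genes in liver, Pecam1 (chromosome 11, 106654217 to 106750628, reverse strand) read 13.4, 10.6, 17.1 and 13.4 CPM in Veh NPD and 16.5, 16.2, 15.5 and 15.3 CPM in Cort NPD, where the groups overlapped. It read 16.4, 18.1 and 14.9 CPM in Veh HPD and 6.95, 12.6, 11.7 and 10.0 CPM in Cort HPD, without overlap. On the HPD the difference was -0.67 ± 0.19 on the log2 scale (adjusted p = 0.0299). It was lost without Veh HPD replicate 1 or 2 or Cort HPD replicate 1 or 4 (adjusted p of 0.0641 to 0.120), with the replicate block (0.0517) and with only the 2 groups compared (0.0721). Cdh5 read 5.45 to 9.98 CPM in Veh NPD, 3.77 to 10.2 CPM in Cort NPD, 6.57 to 11.996 CPM in Veh HPD and 4.36 to 7.50 CPM in Cort HPD, and was called on neither diet (adjusted p = 0.915 and 0.0902). The angiopoietin receptors were called on neither diet. Tie1 read 3.72 to 3.91 CPM in Veh HPD and 1.48 to 3.48 CPM in Cort HPD, without overlap, with a log2 fold change of -0.54 ± 0.31 (adjusted p = 0.293).

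Under Cort, 3 genes differed between the diets in liver, and under Veh none was called. Between the HPD and the NPD under Veh 0 of the 10 were called, beside 0.169% of all genes. All 10 log2 fold changes were above 0 (median 0.34, beside 0.004 over all genes), and 1 had an unadjusted p under 0.05 (Vegfb, 0.57 ± 0.21, adjusted p = 0.334). The 10 genes share their libraries (n = 3 in Veh HPD), so a shared sign is not 10 independent results. The same Veh HPD libraries also enter the Cort effect on the HPD and the interaction. Of all 12391 genes 1165 had an unadjusted p under 0.05. DESeq2 and limma voom called 0 as well. Under Cort 3 of the 10 were called, all lower on the HPD, beside 5.88% of all genes. Flt1 was lower by 1.05 (log2 fold change -1.05 ± 0.22, adjusted p = 0.00642) with no overlap between 13.1 to 27.7 CPM and 7.04 to 11.3 CPM, and kept its call without any single library. Kdr differed by -1.02 ± 0.27 (adjusted p = 0.0345), with overlap. That call was lost without Cort NPD replicate 3 or 4 or Cort HPD replicate 1, 2 or 4 (adjusted p of 0.0603 to 0.116). It was also lost in 5 of 9 other fits, those with no filter, limma voom, quality weights, only the 2 groups compared or all 16 liver libraries (adjusted p of 0.0575 to 0.0896). Pecam1 differed by -0.62 ± 0.18 (adjusted p = 0.0451), without overlap. Its call was lost in 12 of 15 fits that left out 1 library, those without Veh NPD replicate 2 or 3 or Cort HPD replicate 2 being the exceptions (adjusted p of 0.05003 to 0.103), and in 4 of 9 other fits, those with no filter, the replicate block, only the 2 groups compared or all 16 liver libraries (adjusted p of 0.0527 to 0.0768). With library totals in place of TMM factors the median of all genes moved to -0.18 and the calls over all genes from 382 higher and 347 lower to 221 higher and 730 lower, and Tie1 was then called as well (-0.96, adjusted p = 0.0362).

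In liver an interaction between diet and Cort was called by edgeR for 0 of the 10 genes, beside 0.113% of all genes (14 of 12391), with 4 of the 10 at an unadjusted p under 0.05. Of all 12391 genes 1496 had an unadjusted p under 0.05. The estimates of all 10 members were below 0, with a median of -0.82, beside -0.00 over all genes. Flt1 came nearest, with -1.51 ± 0.33 (adjusted p = 0.0641). DESeq2 called it (-1.50, adjusted p = 0.00995), as did edgeR when the filter on low counts was dropped (adjusted p = 0.00596) or when Cort NPD replicate 1 or 2 was left out (adjusted p of 0.0423 and 0.0365). Limma voom did not. The estimates for Pecam1 (-0.89 ± 0.26), Kdr (-1.28 ± 0.39) and Vegfb (-0.82 ± 0.29) had adjusted p values of 0.191, 0.209 and 0.255. The 10 genes were measured in the same libraries and several mark the same cells, so that a shared sign is not 10 independent results. With library totals the median of all genes moved to -0.22 and the calls over all genes from 7 higher and 7 lower to 5 higher and 18 lower.

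The counts of other vascular genes in liver are to be read beside the 20.4% of all genes called there, a difference from fat not being tested. Of the 24 endothelial identity genes 3 fell over both diets, Sox18 (-2.23), Egfl7 (-0.41) and Icam2 (-0.79), and Vwf, the clotting factor carrier, rose (0.92). Sox18 read 0.15 to 0.36 CPM in Cort NPD and 0.29 to 1.61 CPM in Cort HPD, near the floor. On the HPD alone 5 of the 24 fell and 0 rose, with a median of -0.74. On that diet 9.89% of all genes were called (589 higher, 637 lower), with a median of -0.00. The sum of the identity genes lay between 160.5 and 190.0 CPM in Veh HPD and between 121 and 126 CPM in Cort HPD. Of 14 sinusoidal genes tested out of 16, Lyve1 rose by 0.68, while Bmp2, an iron-sensing signal to hepatocytes, (-0.67), Dnase1l3 (-0.40) and Gpr182 (-0.66) fell, with a median of -0.25. With all 16 liver libraries 1 of these 14 was called.

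Nrp1, a co-receptor for VEGF-A, fell by 1.05 and was the gene called among 5 tested of the other VEGF and angiopoietin family genes. Of 8 tip cell genes tested, the basement membrane genes Nid2 (-1.43) and Lama4 (-1.17) fell. Over the libraries used Nid2 read 0.25 to 2.53 CPM and Lama4 0.15 to 1.74 CPM, levels as low as that of Angpt2 in liver (0.26 to 2.19 CPM). Of 16 hypoxia genes tested 4 rose, among them Pdk1 by 0.68, Egln1 by 0.57 and Mxi1 by 0.43. Of 10 mural cell genes tested, Rgs5 rose by 0.71 and Ndufa4l2 by 2.02, the reverse of the sign that Rgs5 had in fat. Ndufa4l2 read 0 to 0.76 CPM in Veh NPD and 0.28 to 1.15 CPM in Veh HPD, near the floor. Of 5 fat capillary genes tested, the fatty acid carrier Cd36, which hepatocytes also make, rose by 2.07 and Aqp1 fell by 0.43. Of 5 lymphatic genes tested, Lyve1 and Prox1, the latter also made by hepatocytes, rose (Prox1 by 0.37). Of 7 secreted inhibitors tested, Serpinf1 fell by 0.43. Of 9 Notch genes and 3 leukocyte adhesion genes tested, 0 were called by edgeR and 1 of each list by DESeq2.

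Markers of other cell types moved in liver too, and their counts are to be read beside the 20.4% of all genes called (1330 higher, 1199 lower). The 10 hepatocyte markers summed to 75379 to 110972 CPM in the Veh libraries, to 98753 to 127845 CPM in Cort NPD and to 148860 to 246706 CPM in Cort HPD, with 4 of the 10 called higher and 1 lower over both diets, Alb (1.19) and Cyp2e1 (-0.87) among them. Of 12 macrophage markers 10 fell and 0 rose. The 8 red blood cell markers summed to 5280 to 7635 CPM in Cort HPD and to 1359 to 3548 CPM in the other 3 groups. The part of these changes in the lower Pecam1, Kdr and Vegfb of Cort HPD livers was not tested.

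The Cort effect itself differed between liver and fat for 2 of the 10 genes, beside 7.76% of 16482 genes in a joint fit of both tissues (640 higher and 639 lower in liver, and 491 and 770 with library totals in place of TMM factors). For Flt1 the mean Cort effect in liver exceeded that in eWAT by 0.78 ± 0.22 on the log2 scale (adjusted p = 0.0195). This call was kept without any single library and lost with library totals in place of TMM factors (0.74, adjusted p = 0.0565) and with limma voom (0.73, adjusted p = 0.0776). On the NPD the log2 fold change of Flt1 was 1.26 in liver and -0.28 in eWAT. On the HPD it was -0.25 and -0.27, so that the mean difference came from the NPD values. A tissue difference within a diet was not tested. For Vegfb the difference was -1.16 ± 0.15 (adjusted p = 2.52e-06), Vegfb being higher by 0.18 under Cort in fat, which was not called, and lower by 0.99 in liver. Tek differed by 1.13 ± 0.45 (adjusted p = 0.128), which was not called, and without liver Cort NPD replicate 1 it was (1.31, adjusted p = 0.0254). The Flt1 to Kdr ratio, tested after its values were seen, differed in its Cort effect by 1.16 between the tissues (exact permutation of labels within tissue and diet, two-sided p = 1.83e-06, and at most 1.09e-05 without any single library). Scaling between libraries cancels in that ratio. The labels of each tissue were permuted on their own, as if no mouse gave both tissues. Whether the same mice gave both is not stated, and if they did, p values this small could not be reached.

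Across the 16 eWAT libraries the genes most like each member by Pearson's r of log2 CPM are given as a description, since the libraries share the treatment and their cell makeup. Cdh5 was closest to Robo4 (0.94), Ablim1 (0.93) and Arhgef15 (0.93). Tek was closest to March1 (0.93), Selplg (0.90) and Itga1 (0.88), and Tie1 to Csf2rb2 (0.93), Prkch (0.85) and Pitpnm3 (0.84). Pecam1 was closest to Esam (0.84), Abl2 (0.84) and Ets1 (0.84). Robo4 and Esam are known endothelial genes, and Selplg and Csf2rb2 are known from leukocytes.

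The VEGF receptors had other neighbours. Kdr was closest to Nrf1 (0.89), Gm20045 (0.83) and Myo10 (0.81), and Flt1 to Ino80d (0.85), Rasa4 (0.85) and Rbm26 (0.84). Among the ligands, Vegfb was closest to the mitochondrial ribosome gene Mrpl49 (0.90), to Hspb8 (0.88) and to Dctn2 (0.87). Vegfa was closest to Rab10os (0.80), Rpl39-ps (0.79) and Kctd20 (0.77), and Angpt1 to Rnf125 (0.84), Ccnl1 (0.82) and Cyren (0.80). Angpt2 was closest to Tor1b (0.87), to Esm1 (0.81), a gene of sprouting endothelium, and to Tanc1 (0.81).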

How the data were processed

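The authors sequenced 3′ ends of eWAT and liver RNA (QuantSeq) and deposited raw read counts per Ensembl gene, not normalized, for 32 libraries; per the labels the build was GRCm38 (mm10), and the aligner and the strand setting are not given in the sources used here. Of 47643 identifiers, 47224 matched GENCODE vM21. Liver Veh HPD replicate 4 was left out of every comparison except where all 16 liver libraries are named. Genes were kept by filterByExpr (minimum count 10, minimum total 15). The 4 groups of a tissue were fitted together with edgeR 4.0.16 (TMM factors, robust quasi-likelihood test) in R 4.3.3, with Benjamini-Hochberg adjustment over all genes tested and a threshold of 0.05. The difference between tissues came from a joint fit of 31 libraries. Log2 ratios of 2 genes within a library were compared by exact permutation within diets, where each count was at least 10, with 8 ratios adjusted together; Tek over Tie1 and Angpt2 over Angpt1 are not given in liver. Alternatives were RLE factors, library totals, no filter, DESeq2 1.42.0, limma 3.58.1 voom with and without quality weights, a replicate block, only the 2 groups compared, all 16 liver libraries and each library left out. The tissue difference of the Flt1 to Kdr ratio and the list counts under alternatives were added after seeing the data. All 10 genes are named throughout; of each list up to 3 called genes per direction with the smallest p are named, and the 3 genes most like each member. Members and lists were chosen with earlier results of these data known. The scripts were tested on simulated counts. Replicates are mice of 1 group. No replicate pair of 48 agreed within sampling noise. Replicate numbers showed no sign of pairing: of 24 same-numbered eWAT pairs 1 had a correlation of deviations over 0.1, and of 21 liver pairs 3. Of 15 same-numbered pairs of eWAT with liver 1 did, with a median of 0.022 beside -0.015 for pairs of other numbers. Whether 1 mouse gave both tissues is not stated. Intervals cover the spread between libraries.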

Additional observations from a re-analysis of the deposited data

Results flagged for a closer look

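Of 70 groups of 4 libraries tested with Dixon's criterion 8 held a library far from the others, where chance flags about 1 in 20 groups. The groups are of 10 genes in the same libraries, so the 70 tests are not independent. In eWAT Veh NPD replicate 3, Cdh5 stood at 154.1 CPM (others 76.7 to 81.8), Kdr at 254.6 CPM (others 111 to 131) and Tie1 at 39.19 CPM (others 20.3 to 22.9). These 3 genes were thus high in the same library. Pecam1 (206 CPM), Flt1 (159.6 CPM) and Tek (23.0 CPM), which were not flagged there, also read highest of their group in it. In eWAT Veh NPD replicate 2, Vegfa stood at 157.4 CPM (others 85.1 to 97.0), and in eWAT Veh HPD replicate 1, Tek at 21.26 CPM (others 13.6 to 14.8). In liver, Vegfb stood at 10.4 CPM in Veh NPD replicate 4 (others 7.98 to 8.31), Angpt2 at 1.472 CPM in Veh NPD replicate 3 (others 0.338 to 0.531) and Angpt1 at 0.3785 CPM in Cort NPD replicate 3 (others 0.790 to 0.863). The flagged Angpt2 and Angpt1 values rest on 17 and 5 reads.

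As a mean of both diets, the Cort effect differed between liver and eWAT for Flt1 (0.7828 on the log2 scale) and Vegfb (-1.163) in the joint edgeR fit. It also differed for the log2 ratio of Flt1 to Kdr (1.165) by exact permutation.

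In the liver library left out, Veh HPD replicate 4, Angpt1 stood at 1.789 CPM and Angpt2 at 2.556 CPM, above the ranges of the other Veh livers (0.441 to 1.26 and 0.344 to 1.51 CPM). Vegfa stood at 16.5 CPM there, below the range of the other Veh livers (24.9 to 32.6 CPM). With this library included, the edgeR call of Vegfa over both diets in liver was lost (adjusted p = 0.218).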

How the results depend on the processing

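Of 130 values of the 10 genes (10 genes in 13 comparisons) 17 were called, and 0 of these changed sign under any alternative, while 37 of the 113 uncalled values changed sign in at least 1. The number called became 2 on the NPD in liver with DESeq2, 5 on the HPD in liver with library totals, 1 between the diets under Cort in liver without the filter, with only the 2 groups compared or with all 16 liver libraries, 1 for the liver interaction without the filter or with DESeq2, and 1 for the tissue difference with library totals or limma voom. With each library left out, the number called ranged from 1 to 2 on the NPD, 0 to 1 on the HPD and 2 to 4 over both diets in eWAT, and from 1 to 2, 1 to 3 and 1 to 3 in liver, from 1 to 3 between the diets under Cort in liver, from 0 to 1 for the liver interaction, and from 2 to 3 for the tissue difference.

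On the NPD and the HPD alone, the log2 ratio of Flt1 to Kdr differed by -0.3862 and -0.2896 in eWAT and by 0.9528 and 0.701 in liver, that of Kdr to Cdh5 by 0.9704 and 0.6153 in eWAT and, on the HPD in liver, by -0.1584, a reversed sign, and that of Vegfa to Vegfb by 0.2353 and 1.015 in liver; fewer samples entered these fits. Without each library the ranges were -0.39 to -0.26 and 0.75 to 0.85 in eWAT for the first and second ratio, and in liver 0.72 to 0.93, 0.00 to 0.26 and, for Vegfa to Vegfb, 0.49 to 0.73; in eWAT they were -0.50 to -0.12 for Tek to Tie1, 0.47 to 0.87 for Angpt2 to Angpt1 and -0.29 to -0.12 for Vegfa to Vegfb.

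With the replicate block, calls were lost for Tie1 over both diets in eWAT (adjusted p = 0.0674), for liver Pecam1 on the HPD (0.0517) and between the diets under Cort (0.0598), for liver Flt1 over both diets (0.0739) and for liver Vegfa to Vegfb (log2 difference 0.657, adjusted p = 0.125). Of 22 counts of called genes in the other gene lists, 8 moved by over 1.5 times in at least 1 of the alternatives tried for them. Depth limits Tek, Angpt1 and Angpt2 in liver.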
